A study of Mus musculus with 2 samples.

Results

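The genes described here encode the interleukin-6 (IL-6) family signalling pathway, from the ligand IL-6 to the transcription factors at its end. They were taken from a fixed list of 10 mouse genes (Il6, Il6ra, Il6st, Osmr, Lifr, Jak1, Jak2, Stat3, Socs3 and Cebpb), matched to the RefSeq identifiers of the deposited mRNA table, which holds 20317 genes with a symbol. All 10 were found in the table, and 9 of them reached 1 RPKM (reads per kilobase of transcript, scaled to the library's size) in a library, as did 12012 genes in all. The RNA came from primary hepatocytes of wild-type male C57BL/6J mice and was sequenced as 1 library per condition. The control mice received intraperitoneal oil, and the CCl4 mice received intraperitoneal 20% CCl4 in mineral oil at 2.5 ml/kg. Injections were given 2 times per week. The labels put their course at 8 weeks and the methods text at 4 weeks. CCl4 is a solvent that injures hepatocytes and leads to scarring of the liver when given repeatedly. The mice were 5 weeks old when obtained, and how many were pooled per library is not given in the sources used here. With 1 library per condition no difference has a replicate check, and what follows compares 2 libraries.

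IL-6 binds its own receptor subunit (IL-6 receptor alpha, from Il6ra), and the complex then engages gp130 (from Il6st), the subunit that most cytokines of the family share. Oncostatin M and leukemia inhibitory factor reach gp130 through their own partners, from Osmr and Lifr. Janus kinases bound to these receptors phosphorylate STAT3, which enters the nucleus and switches on target genes, among them Socs3, whose product blocks the receptor and ends the signal. In liver the pathway is best known for driving the acute phase response together with C/EBP beta, from Cebpb. The study follows IL-6 as a hepatocyte product that acts on hepatic stellate cells, so the question put to these libraries was at which level hepatocyte preparations from oil and CCl4 mice carried the RNA of each step. RNA levels do not measure phosphorylation or secretion.

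The start regions of the ligand gene Il6 and of the feedback gene Socs3 are shown because they stand at the opposite ends of the pathway, and because they were the only members whose promoters held a match to the motifs searched. Sequences are from RefSeq (GRCm38.p6), which gave 11 promoters for the 10 genes, each running from 250 bases before to 50 bases after an annotated start. Capitals mark TTCNNNGAA, a STAT motif that reads the same on both strands, in Socs3 and TTGCNNAA or its reverse complement TTNNGCAA, a C/EBP motif, in Il6. Il6 lies at chr5:30012864-30013163 on the plus strand, and Socs3 at chr11:117969317-117969616 on the minus strand.
Il6: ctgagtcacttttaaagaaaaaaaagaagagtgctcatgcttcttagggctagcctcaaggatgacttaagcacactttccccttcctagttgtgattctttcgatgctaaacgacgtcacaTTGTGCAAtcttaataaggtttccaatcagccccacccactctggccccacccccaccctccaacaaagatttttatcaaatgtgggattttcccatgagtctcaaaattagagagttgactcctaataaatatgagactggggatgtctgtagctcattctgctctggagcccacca
Socs3: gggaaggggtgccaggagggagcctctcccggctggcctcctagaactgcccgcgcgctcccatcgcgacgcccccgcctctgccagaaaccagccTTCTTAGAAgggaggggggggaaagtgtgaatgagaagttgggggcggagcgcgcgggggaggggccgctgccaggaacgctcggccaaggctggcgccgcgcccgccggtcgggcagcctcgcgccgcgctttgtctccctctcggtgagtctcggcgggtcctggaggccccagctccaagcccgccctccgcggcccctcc

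The STAT motif began 154 bases before the Socs3 start that this promoter belongs to, which lies inside the longer span annotated for the gene, and 8.3% of all 32851 promoters of the same length held such a match. The C/EBP motif began 128 bases before the start of Il6, and 10.8% of all promoters held one. Neither of these promoters held both motifs. A match describes the letters only.

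None of the 9 measured members differed by 2-fold or more between the libraries. Among all 12012 genes tested, 16.5% were at least 2-fold higher and 5.39% at least 2-fold lower in the CCl4 library. A log2 ratio compares CCl4 with oil RPKM (positive when CCl4 is higher), with any value under 1 RPKM set to 1. The median gene itself had a log2 ratio of 0.33, beside which each member is read. Scaling both libraries to the same median, which lowers every log2 ratio by 0.34, turned 1984 higher and 647 lower genes into 1046 higher and 1225 lower, and still left 0 members past 2-fold. The measured members ran from -0.61 for Lifr to 0.71 for Jak2 with a median of -0.13. At a smaller step of 1.5-fold, Il6st, Jak1 and Jak2 were higher (3 of 9, where 33.9% of all genes were) and Lifr was lower (1 of 9, where 11.5% of all genes were). After scaling to the same median this balance turned round, with 0 members at least 1.5-fold higher (18.7% of all genes) and 3 lower, Lifr, Stat3 and Cebpb (20.4% of all genes).

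**Figure D1:**
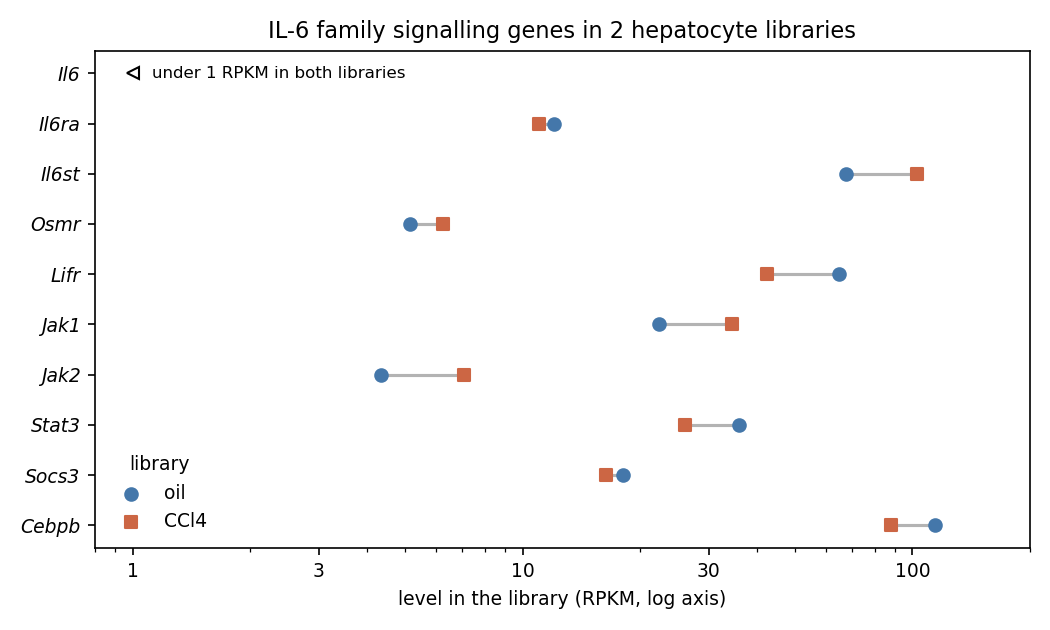
RPKM of each IL-6 family signalling gene on a log axis, with a circle for the oil library and a square for the CCl4 library (1 library each, no error bar). Il6 is drawn as an open arrow since it is listed at 0, which stands for under 1 RPKM, and Il6st and Cebpb lie at the right with 67.4 to 114 RPKM.

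Of the ligands, Il6 (chr5:30013114-30019975) was listed at 0 in the oil library and at 0 in the CCl4 library. In the deposited tables a listed 0 stands for a value under 1 RPKM. Among the 1443 unannotated lncRNAs, for which values without the cutoff were also deposited, the zeros (1354 in oil, 1347 in CCl4) were under 1 RPKM without exception. No mRNA value above 0 was below 1 RPKM either. At the totals recovered for the mRNA values, 1 RPKM is 58.0 reads per kilobase in the oil and 64.7 in the CCl4 library. The deposited new lncRNA values rest on other, larger totals. An Il6 transcript up to that number of reads per kilobase would also be listed at 0, so the RPKM values alone show no difference below that level. The authors' deposited log2 changes, from which values under 1 RPKM may be restored, were not used here. None of the 9 housekeeping genes checked was listed at 0, and the lowest of them stood at 3.61 RPKM.

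The other ligands were also low. Of the 12 ligand genes of the family, 8 were listed at 0 in both libraries, among them Il6, Il11 and Lif. Osm, which encodes oncostatin M, was at 1.77 RPKM under oil and 1.61 RPKM under CCl4. Clcf1, a ligand of the ciliary neurotrophic factor receptor, was at 1.12 and 1.61 RPKM. Ctf1, which encodes cardiotrophin-1, was at 1.44 RPKM in the oil library and listed at 0 in the CCl4 library. Only Ebi3, the subunit shared by IL-27 and IL-35, passed 2-fold, with 1.19 and 2.47 RPKM. No ligand of the list exceeded 2.47 RPKM in either library, whereas all 4 member receptors were above 5 RPKM in both.

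Il6st (chr13:112464070-112506860) was the most abundant receptor gene by its single transcript. It stood at 67.4 RPKM under oil and 103 RPKM under CCl4, where 96.7% of the genes tested had a lower level. The log2 ratio was 0.61, a 1.53-fold difference, with a 95% interval for counting error of 0.54 to 0.68 (exact Clopper-Pearson, at least 2830 and 4819 reads). After scaling to the same median it was 0.27.

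Lifr (chr15:7090610-7197489) had nearly the level of Il6st in the oil library and went the other way. Its most abundant transcript was at 64.7 RPKM under oil and 42.3 RPKM under CCl4, with a log2 ratio of -0.61 (counting interval -0.67 to -0.55). This was the lowest ratio of the members, and 11.0% of all genes had a lower one. A second Lifr transcript was at 32.3 and 28.9 RPKM, with a log2 ratio of -0.16, and the sum of both transcripts gave -0.44. The size of the Lifr difference therefore depends on the transcript, while both were lower in the CCl4 library. The sources used here do not say how reads shared by transcripts were counted, so a sum may hold some reads more than once. The ratio of Il6st to the more abundant Lifr transcript was 1.04 in the oil and 2.43 in the CCl4 library.

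Il6ra (chr3:89869324-89913196), the subunit that gives a cell its own response to IL-6, was at 12.1 RPKM under oil and 11.0 RPKM under CCl4. The log2 ratio of -0.13 had a counting interval of -0.21 to -0.05. Il6st RNA was 5.59 times as abundant per length as Il6ra RNA in the oil library and 9.34 times in the CCl4 library. The gap between the shared and the specific subunit was thus wider in the CCl4 library.

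Osmr (chr15:6813568-6874968) was the lowest of the 4 member receptors in both libraries. It was at 5.15 RPKM under oil and 6.26 RPKM under CCl4. Its log2 ratio of 0.28 (counting interval 0.18 to 0.38) was the closest of all members to the median gene, and it became -0.06 after scaling to the same median, so the direction of Osmr depends on the scaling. Among the other receptors of the family, Il11ra1 was at 10.4 and 17.1 RPKM, and Il27ra passed 2-fold with 2.45 and 5.20 RPKM. Cntfr was listed at 0 in the oil library and at 1.96 RPKM in the CCl4 library. Il31ra was listed at 0 in both. The order of the member receptors by their most abundant transcript was Il6st, Lifr, Il6ra and then Osmr in both libraries. With transcripts summed, which may count shared reads more than once, Lifr at 97.0 RPKM stood above Il6st in the oil library. In the CCl4 library the sum of 71.3 RPKM stood below Il6st.

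**Figure D2:**
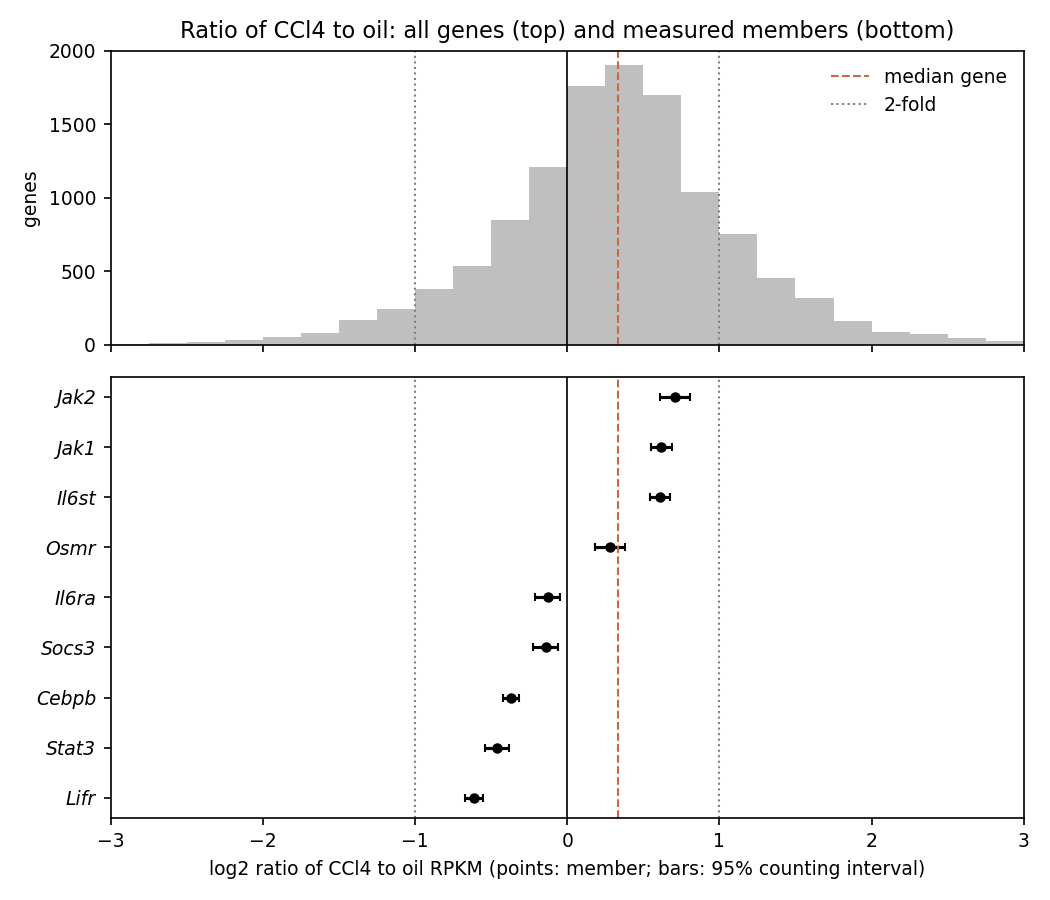
Histogram of the log2 ratio of CCl4 to oil RPKM for all genes tested (top, the axis shows -3 to 3, which holds 99.1% of them) and the ratio of each measured member with its 95% counting interval (bottom, 1 library per condition). The dashed line is the median gene at 0.33 and the dotted lines are 2-fold. All 9 points lie between the dotted lines, 3 of them to the right of the median gene.

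The Janus kinases had similar ratios, above 0 with and without scaling to the same median. Jak1 (chr4:101151974-101265282), the kinase on which gp130 signalling chiefly depends, was at 22.4 RPKM under oil and 34.4 RPKM under CCl4, with a log2 ratio of 0.62 (counting interval 0.55 to 0.69). Jak2 (chr19:29251803-29313095) was at 4.33 and 7.07 RPKM, with a log2 ratio of 0.71 (0.61 to 0.81), the highest of the members. Its second transcript gave 4.29 and 7.02 RPKM. The other kinases of the family, Jak3 and Tyk2, had log2 ratios of 0.69 and 0.74, so that the 4 kinases spanned only 0.62 to 0.74 and none passed 2-fold.

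Stat3 (chr11:100886806-100939594), the main transcription factor of the pathway, stood above the other STAT genes named here in the oil library, each by its most abundant transcript. It was at 36.0 RPKM under oil and 26.1 RPKM under CCl4, with a log2 ratio of -0.46 (counting interval -0.54 to -0.38). Its 3 transcripts gave nearly the same values, from 35.9 to 36.0 RPKM and 26.1 RPKM. Stat2, Stat5a and Stat5b lay between -0.11 and 0.03, Stat6 was at 0.47 with 20.5 and 28.4 RPKM, and Stat4 was listed at 0 in both libraries. Stat3 thus had the lowest ratio of these STAT genes.

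Socs3 (chr11:117966079-117970336), the feedback inhibitor whose start region is printed above, was at 18.1 RPKM under oil and 16.4 RPKM under CCl4. The log2 ratio of -0.14 (counting interval -0.22 to -0.06) was close to that of Il6ra. Beyond Socs3, the inhibitors of the list split. Socs2, an inhibitor best known from growth hormone signalling, was lower, with 12.6 and 4.38 RPKM and a log2 ratio of -1.52. Pias3, which encodes an inhibitor of STAT3, was higher, with 1.63 and 4.31 RPKM. The remaining 6, Socs1, Cish, Pias1, Ptpn1, Ptpn2 and Ptpn6, stayed within 2-fold, with Ptpn6, a phosphatase of blood cells, the nearest to it at 0.98.

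Cebpb (chr2:167688915-167690432) was the most abundant member in the oil library. It was at 114 RPKM under oil and 88.3 RPKM under CCl4, with a log2 ratio of -0.37 (counting interval -0.42 to -0.32). Cebpa, a factor of differentiated hepatocytes, was at 92.5 and 98.1 RPKM, so that Cebpb was 1.23 times Cebpa in the oil and 0.90 times in the CCl4 library. Cebpd was at 22.9 and 25.6 RPKM. All 6 C/EBP genes were measured and none passed 2-fold, and Cebpb was the only one of them with a ratio under 0, though Cebpa, Cebpd, Cebpg and Ddit3 also fell under 0 after scaling to the same median.

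The 57 genes of the pathway without its targets, members included, held 47 measured genes, of which 8 were higher and 1 was lower by 2-fold. These shares, 17.0% higher and 2.13% lower, stand beside 16.5% and 5.39% of all genes. Besides the genes named above, the higher ones were Adam10, a protease that sheds receptors from the cell surface (5.83 and 13.5 RPKM), Rhbdf1, an iRhom protein that assists such proteases (3.06 and 6.66 RPKM), and the adaptors Grb2 (8.83 and 18.2 RPKM), Gab1 (2.45 and 5.64 RPKM) and Gab2 (2.78 and 7.91 RPKM) of the MAPK branch. Adam17, which sheds the IL-6 receptor, was at 10.1 and 17.5 RPKM with a log2 ratio of 0.79. After scaling to the same median, 2 of the 47 measured genes, Pias3 and Gab2, were still at least 2-fold higher and 1, Socs2, was lower. Of all 12012 genes tested, 1046 were then higher and 1225 lower.

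**Figure D3:**
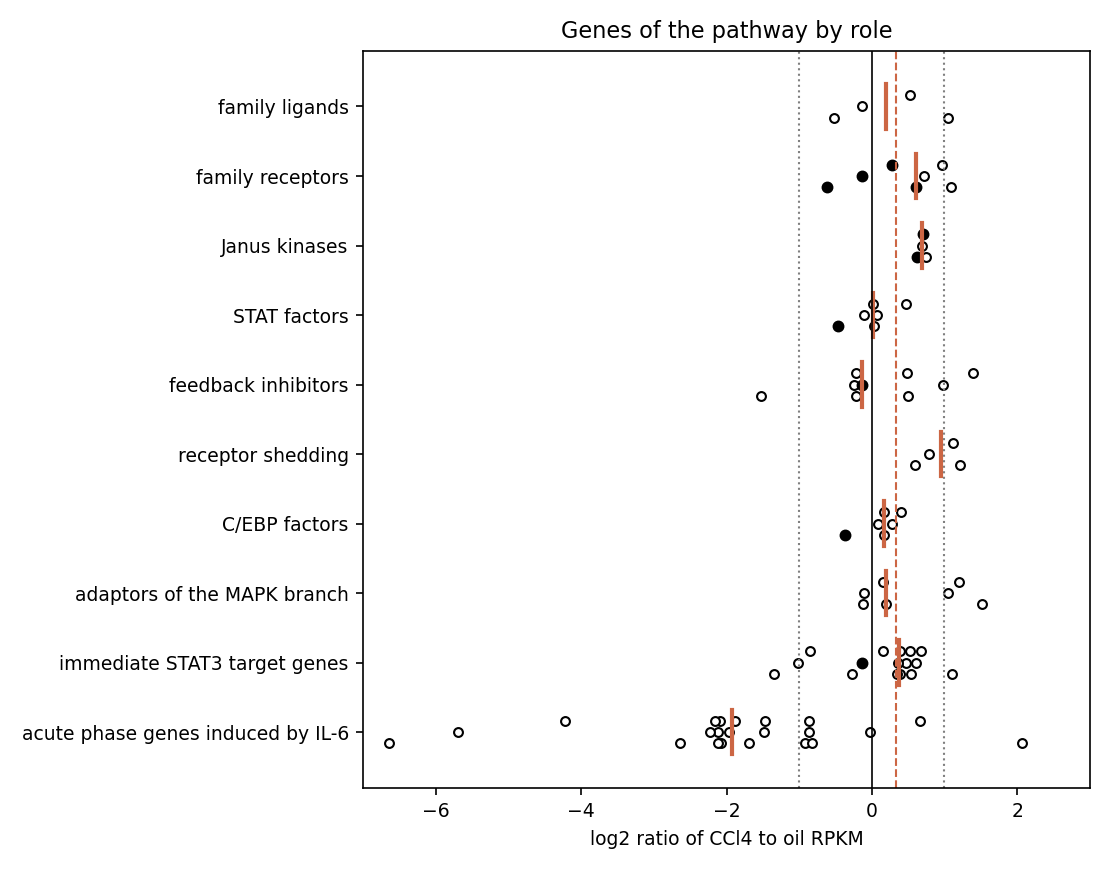
Log2 ratio of CCl4 to oil RPKM for each measured gene of the pathway, 1 row per role, with members as filled points, other genes as open points and the list median as a bar (dashed line, median gene; dotted lines, 2-fold; 1 library per condition). Vertical offsets within a row only separate points. The kinases sit close together near 0.70, the STAT genes run from -0.46 to 0.47, and the acute phase genes far to the left with a median of -1.92.

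At the output end, the 16 immediate target genes of STAT3 had a median log2 ratio of 0.37, close to the median gene, with 1 higher and 2 lower by 2-fold, beside 16.5% and 5.39% of all genes. After scaling to the same median 0 were higher and 3 lower, Timp1 no longer being called and Bcl3 joining Pim3 and Bcl2l1. With that scaling, 1046 of all 12012 genes were higher and 1225 lower. Timp1, an inhibitor of matrix proteases, was higher with 3.87 and 8.35 RPKM. Pim3, a survival kinase, was lower with 57.1 and 22.5 RPKM, and so was Bcl2l1, which encodes the survival protein Bcl-xL, with 26.7 and 13.2 RPKM. Of 22 acute phase genes, 15 were lower and 1 was higher, with a median log2 ratio of -1.92. Hepatocyte markers, described below, were lower too, 7 of 10 by 2-fold, with a median of -1.43. The lowest acute phase ratios were those of the serum amyloid genes Saa2, at 2894 and 28.8 RPKM, and Saa1, at 2359 and 45.3 RPKM. These 2 genes are close copies of each other, so that reads may have been split between them. The other lower genes were Hp, Hpx, Orm1, Orm2, Itih3, Itih4, Serpina3n, Lcn2, Apcs and Crp. The fibrinogen chain genes Fga, Fgb and Fgg were at -2.09, -2.15 and -2.08, whereas Hamp, the hepcidin gene, was at 184 and 181 RPKM. Saa3, another serum amyloid gene that macrophages also express, was higher with 80.5 and 337 RPKM. After scaling to the same median, 19 of the 22 acute phase genes were lower and 1 was higher, with a median of -2.27.

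Hepatocyte markers were abundant, with Alb at 8656 RPKM under oil and 6476 RPKM under CCl4, and markers of other cells were present in both preparations. Of 10 hepatocyte markers, 7 were lower by 2-fold and 0 higher, with log2 ratios from -2.33 to -0.42. All 10 stellate cell and myofibroblast markers were higher, with summed levels of 83.6 and 969 RPKM and Pdgfrb listed at 0 in the oil library. The 8 sinusoidal endothelial markers, at 553 and 945 RPKM in sum, had log2 ratios from 0.67 to 1.05, of which 2 passed 2-fold. The 8 Kupffer cell and macrophage markers summed to 817 and 1540 RPKM and 4 were higher. The neutrophil and monocyte markers were split, with 2 of 6 higher, log2 ratios from -0.83 to 1.66, and a sum of 309 and 199 RPKM that was lower in the CCl4 library. The T, B and NK cell markers were split as well, with 2 of 8 higher, a lowest log2 ratio of -0.68 and a sum of 10.6 and 15.2 RPKM, and Cd3e and Cd8a were listed at 0 in both libraries. Of the cholangiocyte markers, which summed to 50.9 and 170 RPKM, 2 of 6 were higher, with Sox9 and Cldn7 listed at 0 in both. After scaling to the same median, 9 hepatocyte markers were lower, the 10 stellate cell markers were still higher, and 0 endothelial, 1 macrophage and 1 cholangiocyte marker were higher. The neutrophil and monocyte list then had 1 higher and 3 lower, and the T, B and NK cell list 2 higher and 1 lower. In such bulk RNA, fewer cells of a type and less RNA per cell cannot be told apart.

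Set beside these lists, all 9 measured members had a higher ratio than the median hepatocyte marker at -1.43, and 7 lay above the highest of them, Alb at -0.42. Most genes did the same. Of all genes tested, 11.0% had a lower ratio than Lifr, 13.8% a lower one than Stat3 and 16.1% a lower one than Cebpb. Alb lay between Stat3 at -0.46 and Cebpb at -0.37. Lying above these marks therefore does not set the members apart from genes in general. Lifr and Stat3 lay inside the hepatocyte range. Jak2 at 0.71 lay inside the endothelial range, Il6st at 0.61 and Jak1 at 0.62 just under its lowest value of 0.67, and all 3 under the lowest stellate cell ratio of 2.50. The cholangiocyte range, 0.66 to 1.95, likewise held Jak2, with Il6st and Jak1 just under it. All 3 values also lay inside the ranges of the macrophage markers (-0.15 to 2.72), the neutrophil and monocyte markers and the T, B and NK cell markers. The endothelial range therefore does not set them apart. The part of other cell types in the levels of Il6st, Jak1, Jak2 or any other member was not tested.

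**Figure D4:**
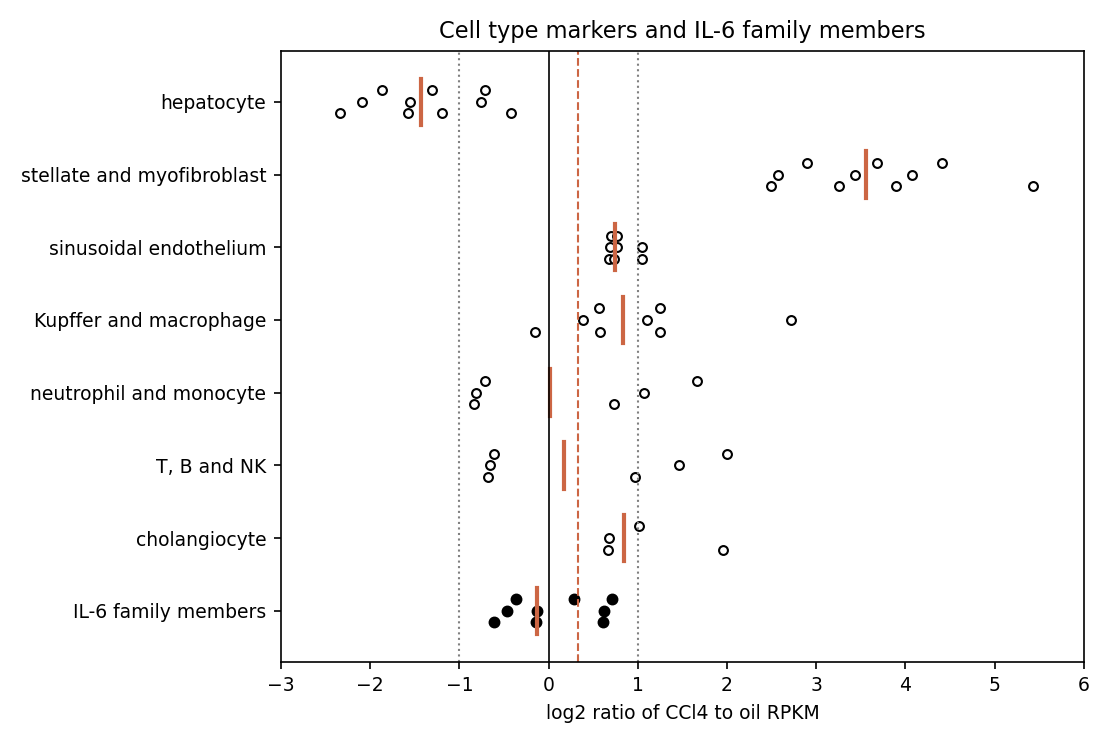
Log2 ratio of CCl4 to oil RPKM for each measured marker of 7 cell types (open points) and for the 9 measured members (filled points), with the median of each row as a bar (dashed line, median gene; dotted lines, 2-fold; 1 library per condition). Markers listed at 0 in 1 library are drawn with 1 RPKM in its place. The members lie to the right of the hepatocyte median of -1.43, with Lifr and Stat3 still within the hepatocyte row, and to the left of every stellate marker, the lowest at 2.50. Most of all genes tested also lay between that median and the lowest stellate marker.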

How the data were processed

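Livers were digested by enzyme perfusion, hepatocytes were purified on a gradient, and their total RNA was sequenced as 1 library per condition. The submitters' processing notes name CASAVA 1.4, TopHat2 and the build mm10; the counting program is not given in the sources used here. The authors deposited RPKM for annotated mRNAs and lncRNAs, with every value under 1 listed as 0, and read counts and RPKM without a cutoff for new lncRNAs. Columns with the authors' log2 changes, p-values and q-values were not used.

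RefSeq identifiers were paired with symbols through GRCm38.p6 (27049 of 27457 mRNA transcripts). Each gene took the values of whichever transcript averaged the most RPKM. Values under 1 RPKM were set to 1, genes at 1 RPKM or more in a library were compared, and a 2-fold difference was called. No test was possible, and the background share of all genes stands in its place. Library totals that turn the RPKM of RefSeq genes under 400 bases into whole reads (within 0.02 reads, or a relative 1e-05 where that is more) were 57992586 reads for oil (215 of 225 genes) and 64655554 for CCl4 (230 of 240). The deposited counts and RPKM of the new lncRNAs instead gave 62438204 and 70960847; the difference was not explained by the sources used here, and only the first pair was applied to the mRNAs. Reads behind a member are lower bounds, from the shortest length (200 to 30000 bases) giving whole reads in both libraries. On 1397 new lncRNAs, with the totals of those lncRNAs, such reads equalled the deposited counts in 83.9% and exceeded them in 0. Whether that share holds for the members was not tested. Where the recovered reads are too few, an interval is wider than the full count would give. Intervals leave out everything but counting error, as reads copied by PCR do not count separate molecules. Recovery, intervals and calls were also run on simulated data, but no outcome of those runs is given here or used as support.

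Members and lists were chosen with earlier results of these data known. The naming rule was all 10 members, the genes of the pathway lists past 2-fold with 5 RPKM or more in a library, and at most 3 markers per cell type. Genes of the lists named beyond it were chosen after their values were seen. Some genes of the lists are not reported here by name. Alternatives were another scaling, pseudocount, level, fold and transcript rule. Figures were drawn with matplotlib 3.10.9, and values computed with pandas 2.3.3, scipy 1.17.1 and numpy 2.4.6 under Python 3.11.15.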

Additional observations from a re-analysis of the deposited data

How the results depend on the processing

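The count of members called was 0 higher under 9 of 10 alternatives and 0 lower under 8 of 10. Several of these could give no other count. With no member past 2-fold, the 4-fold limit, the level limits and the pseudocounts could not add one. At 1.5-fold it was 3 higher and 1 lower, and at 1.5-fold with both libraries scaled to the same median, an alternative chosen after seeing the data, it was 0 higher and 3 lower, beside 2248 and 2447 of all genes. Over all genes, 1984 higher and 647 lower became 1046 and 1225 with both libraries scaled to the same median, 4072 and 1383 at 1.5-fold and 292 and 100 at 4-fold. With 5 RPKM required in at least 1 library 1303 genes were higher. Of the pathway genes without targets, 8 higher became 2 under median scaling. A looser or stricter limit changes a count by its own definition, and what lies behind the shift under median scaling was not tested. Of 45 values of single members under alternatives, 34 stayed within their counting interval, 11 did not, and 1 crossed 0 (Osmr at -0.06 under median scaling). All 9 measured members moved under median scaling. For a member with 1 transcript, the sum of transcripts could give no other value, so the 34 do not measure stability. Outside median scaling the moved values were Jak2 at 0.60 with 1 RPKM added and Lifr at -0.44 as the sum of its transcripts. No paired analysis was possible because each condition has 1 library. With the RPKM values used alone, the cutoff at 1 RPKM limits what can be said here of Il6 and the other low ligands. The authors' log2 changes, which may reach below that cutoff, were not used.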
